A study of Mus musculus with 9 samples.

Results

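The genes of cholesterol synthesis, fatty acid synthesis and sterol export were followed by RNA sequencing in bone marrow-derived mast cells (BMMCs). They comprise 35 genes, taken by symbol from the 47643 genes of the deposited count table: 5 regulators of sterol sensing, 7 mevalonate enzymes, 11 enzymes of the squalene and sterol steps, 1 sterol transport gene, 8 fatty acid genes and 3 genes of the kind that liver X receptors (LXRs) switch on. All 35 were among the 11560 genes tested, which had a median CPM (a gene's counts scaled to a common library size) above 1 over the libraries. Enzymes of the mevalonate, squalene and sterol steps together with the transport gene are called the 19 sterol genes.

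The 9 libraries formed 3 groups of 3, named Control, IgE+BSA and IgE+BSA+Luteolin. All came from primary BMMCs, cultured from the bone marrow of C57BL/6 mice for several weeks in WEHI-3-conditioned medium, which supplies growth factors for mast cells. IgE+BSA cells were sensitized with DNP-specific IgE and challenged with DNP-BSA, the antigen that crosslinks it. IgE+BSA+Luteolin cells also received luteolin, a plant flavone, at 10 µM for 24 h; the labels carry this dose and time on all 9 samples, Control included, so it is read here as that of the group named for luteolin. The study's text places luteolin before the challenge in one place and after it in another, and the time of harvest after challenge is not given in the sources used here. No group received luteolin without challenge. Library totals ran from 9515004 counts, in Control replicate 2, to 24605689. The labels give no age, sex or genotype beyond the strain and do not say that replicates came from separate cultures or animals, so p-values measure the spread between these samples, which may be technical.

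Cells keep sterols level by sensing them at the endoplasmic reticulum. When sterols are low, the escort protein Scap carries the SREBP proteins, made from Srebf1 and Srebf2, to the Golgi, where they are cut and freed to act in the nucleus. SREBP2 mainly drives cholesterol genes and the SREBP1 isoforms mainly fatty acid genes. When sterols are high, the Insig proteins hold Scap back, and oxidized sterols activate LXRs, which induce exporters such as Abca1 and Abcg1, and Mylip, a ubiquitin ligase that lowers uptake of lipoproteins. LXRs can also induce Srebf1 and some fatty acid genes.

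The study's text describes separate clusters by treatment in a principal component analysis. In the deposited counts, however, Control replicate 1 stood apart from the other Control libraries. Its median absolute log2 difference from each of Control replicates 2 and 3 was 0.433, against 0.125 between those replicates and 0.215 to 0.254 between it and the IgE+BSA+Luteolin libraries. The summed level of 7 neutrophil markers was 249.7 CPM in Control replicate 1, 7.35 and 5.89 CPM in Control replicates 2 and 3, 179.1 to 195.3 CPM in IgE+BSA and 206.0 to 238.6 CPM in IgE+BSA+Luteolin, and the basophil protease Mcpt8 was 431.8, 21.8 and 18.7 CPM in the Control libraries and 292.2 to 368.1 CPM in the others. The labels do not say whether the Control replicates shared a culture, and a difference between cultures and an exchanged sample cannot be told apart here, so what every comparison with Control measures depends on which Control libraries match their label. Each is therefore given with all Control libraries, without Control replicate 1, and with it as the only Control library. Mast cell markers were high in every library, at a sum of 54040 to 81630 CPM over 8 genes. Among 8 macrophage or monocyte markers, with a sum of 330.8 to 410.4 CPM, Mrc1, C1qa and C1qb stayed under 1 CPM. The part of other cells in the results below was not tested, and in such bulk samples fewer cells of a type and less RNA per cell cannot be told apart.

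The promoters of 5 of the genes that differed with luteolin are printed here because SREBPs and their partners bind short motifs close to the start of many of these genes. Idi1 and Abcg1 also differed but are not printed. The window of Idi1 was annotated as exon throughout, and no promoter was matched for Abcg1. RefSeq promoters were matched for 27 of the 35 genes, in 35 windows of the 250 bases before a start (build GRCm38.p6). Both strands were searched for the sterol regulatory element core TCACNCCAC, the NF-Y box CCAAT, the Sp1 box GGGCGG and the E-box CACGTG, none of which contains another. Capitals mark a match to any of them, and positions count bases before the start. Each sequence reads 5′ to 3′ on the strand of the gene. In the same build the genes lie at chr13:119690379-119708260 for Hmgcs1, chr5:28071363-28078662 for Insig1, chrX:8185329-8193512 for Ebp, chr13:45389742-45412022 for Mylip and chr4:53030787-53159895 for Abca1.
Hmgcs1, chr13:119690101-119690350, plus strand: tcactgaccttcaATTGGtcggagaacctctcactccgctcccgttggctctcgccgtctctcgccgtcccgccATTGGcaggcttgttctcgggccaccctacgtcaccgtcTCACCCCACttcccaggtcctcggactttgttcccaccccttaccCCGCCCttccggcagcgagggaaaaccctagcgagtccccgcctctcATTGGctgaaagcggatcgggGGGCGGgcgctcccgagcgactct
Insig1, chr5:28071162-28071362, plus strand, without bases annotated as exon: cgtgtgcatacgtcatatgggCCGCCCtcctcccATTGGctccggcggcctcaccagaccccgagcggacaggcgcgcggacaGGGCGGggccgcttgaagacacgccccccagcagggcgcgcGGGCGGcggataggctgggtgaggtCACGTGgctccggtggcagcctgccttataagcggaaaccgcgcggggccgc
Ebp, chrX:8193513-8193762, minus strand: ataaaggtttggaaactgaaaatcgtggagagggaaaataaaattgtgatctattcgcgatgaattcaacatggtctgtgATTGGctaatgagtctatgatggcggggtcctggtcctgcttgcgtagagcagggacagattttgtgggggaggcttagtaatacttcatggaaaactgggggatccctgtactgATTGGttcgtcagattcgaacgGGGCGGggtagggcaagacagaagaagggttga
Mylip, chr13:45389492-45389741, plus strand: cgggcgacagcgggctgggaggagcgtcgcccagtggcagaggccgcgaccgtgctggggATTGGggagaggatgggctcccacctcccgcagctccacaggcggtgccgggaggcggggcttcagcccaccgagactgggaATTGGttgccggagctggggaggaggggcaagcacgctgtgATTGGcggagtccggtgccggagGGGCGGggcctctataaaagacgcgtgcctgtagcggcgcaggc
Abca1, chr4:53159896-53160145, minus strand: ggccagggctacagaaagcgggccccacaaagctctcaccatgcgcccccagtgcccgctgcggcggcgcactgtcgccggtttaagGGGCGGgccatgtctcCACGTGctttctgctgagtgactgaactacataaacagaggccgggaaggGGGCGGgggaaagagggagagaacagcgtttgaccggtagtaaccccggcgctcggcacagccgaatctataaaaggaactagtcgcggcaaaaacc

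The sterol regulatory element core was found in 1 of the 35 windows, that of Hmgcs1, where it begins 137 bases before the start, with CCAAT boxes at 237, 176 and 45 bases and GC boxes at 92 and 24 bases. It was present in 1.05% of all 32851 promoters of the table and in 1.03% of the 11389 promoters of tested genes. CCAAT was found in 21 windows of 20 genes (60.0% of windows, against 33.9% of all promoters and 35.3% of those of tested genes). The GC box was found in 26 windows of 23 genes (74.3%, against 32.7% and 57.6%) and the E-box in 6 windows of 6 genes (17.1%, against 6.02% and 8.40%). Some genes have more than 1 window, and some windows overlap each other or annotated exons. The printed windows differ in makeup: that of Insig1 holds CCAAT, GC boxes and an E-box, those of Ebp and Mylip hold CCAAT and a GC box, and that of Abca1 holds an E-box and GC boxes without CCAAT. No motif bound by LXRs was searched for. A match describes letters only, and the absence of one says nothing of binding.

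The genes covered a wide range of levels. In IgE+BSA, mean levels per kilobase of exonic length were highest for Scd2 (43.0 CPM per kb), which desaturates fatty acids, Acly (39.1), which makes acetyl-CoA in the cytosol, and Mylip (28.1). Srebf1 (20.1) was above Srebf2 (10.9), and Abcg1 (17.6) above Abca1 (2.23). Among the sterol genes Ebp, the isomerase of the late sterol steps, led with 19.3 CPM per kb and Hmgcs1, which makes HMG-CoA, followed with 9.12. Fdps, which makes farnesyl diphosphate, and Scd1, the counterpart of Scd2 that is prominent in liver, were lowest at 0.251 and 0.279 CPM per kb, with 67 and 85 counts over the 3 IgE+BSA libraries. Fdps shares 929 identical bases with Gm43738, which overlaps it, and 1062 bases at 98.9% identity with the processed pseudogene Gm3571, so its reads may have been lost or split in counting and its low rank is uncertain.

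**Figure D1:**
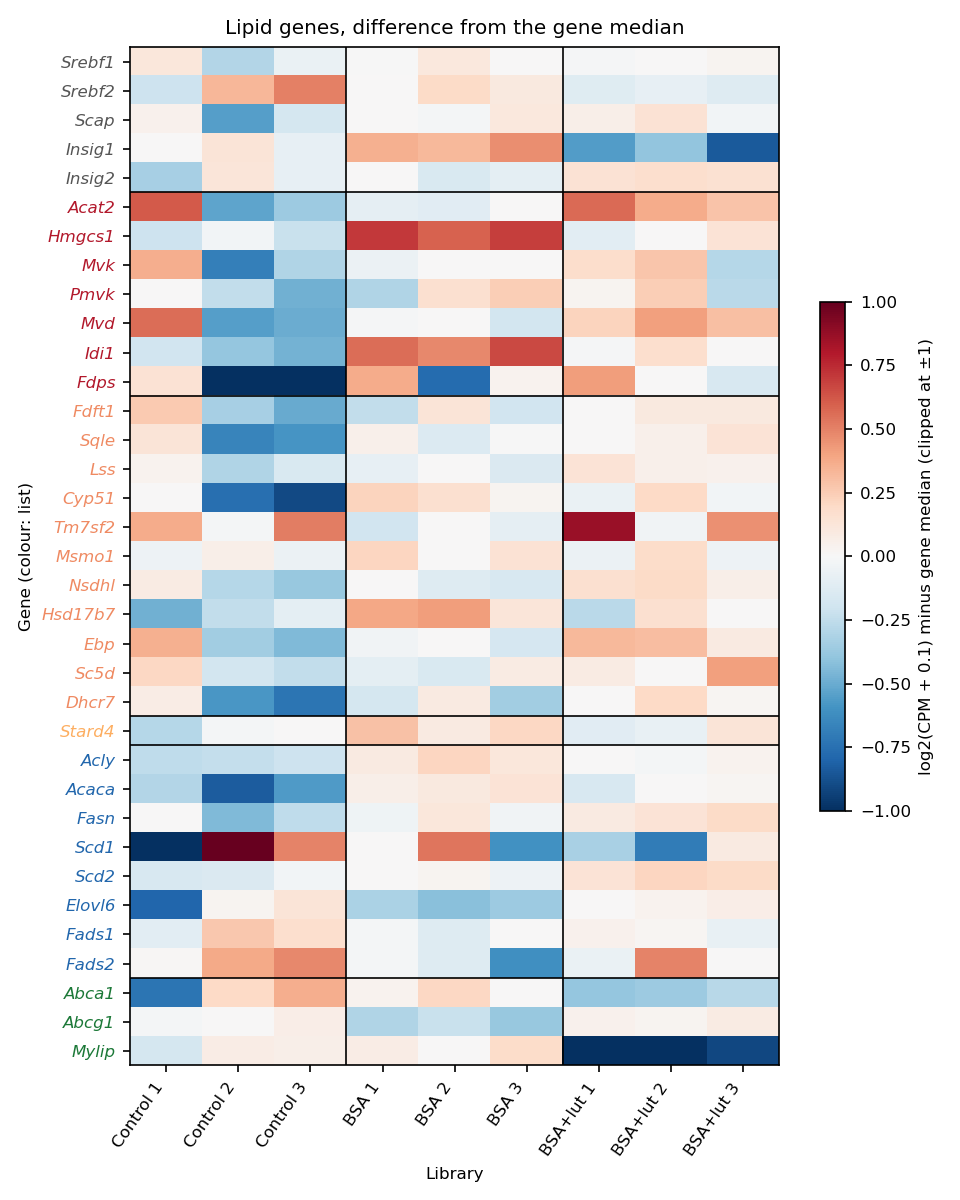
Level of the 35 genes (rows, names coloured by gene list and lists divided by lines) in the 9 libraries (columns), as log2(CPM + 0.1) minus the median of the gene over the libraries, red above and blue below, clipped at 1 in either direction. Hmgcs1 and Idi1 are reddest in the IgE+BSA libraries and Mylip bluest in the IgE+BSA+Luteolin libraries, and many sterol genes are bluer in Control replicates 2 and 3 than in Control replicate 1.

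Luteolin in challenged cells was addressed by comparing IgE+BSA+Luteolin with IgE+BSA. The sterol genes did not move as a block: 2 rose, 2 fell and 15 did not pass the test. This split depends on the scaling, with 8 higher and 2 lower by library size alone and 5 higher and 2 lower by upper-quartile factors, which also raised the share of all genes called higher to 33.4% and 28.3%. Hmgcs1 and Idi1, enzymes of the mevalonate pathway, fell along with the sterol sensor Insig1, while Acat2 and Ebp rose. The LXR-type genes split, with Mylip falling the most, Abca1 falling and Abcg1 rising. Of the 8 fatty acid genes only Scd2 passed the test, and it rose. This too depends on the scaling: Fasn and Elovl6 were also called higher by library size alone and by upper-quartile factors, and Fads1 by library size alone. Over all 35 genes 5 rose (14.3%) and 6 fell (17.1%), and the background over the 11560 genes tested was 18.1% higher and 21.9% lower, so neither count exceeded it in this fit. By library size alone 14 rose (40.0%, against 33.4% of all genes) and by upper-quartile factors 10 (28.6%, against 28.3%). These counts are from edgeR's quasi-likelihood test on the 3 against 3 libraries, with Benjamini-Hochberg adjustment over all genes tested and a threshold of 0.05; below, the error of a log2 change is its standard error.

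By the position of the libraries alone, 9 of the 35 genes had every IgE+BSA+Luteolin library above every IgE+BSA library (25.7%, background 24.2%) and 8 had every one below (22.9%, background 26.2%). The median log2 change was 0.10 over the 35 genes, 0.16 over the 19 sterol genes, 0.09 over the 8 fatty acid genes and -0.43 over the 3 LXR-type genes, against 0.017 over all genes tested.

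Insig1, which retains the SREBP escort in the endoplasmic reticulum and is itself an SREBP target, had 12.7, 12.4 and 13.7 CPM in the IgE+BSA libraries and 6.67, 7.49 and 5.46 CPM in the IgE+BSA+Luteolin libraries. Every library with luteolin was below every library without it, also below the 9.31 to 10.8 CPM of Control. The log2 change was -0.97 ± 0.14 (edgeR adjusted p = 4.63e-05). Its relative Insig2, which serves the same retention but is not driven by SREBPs in the same way, had 19.4, 17.5 and 18.2 CPM without and 21.5, 21.9 and 21.6 CPM with luteolin. This rise, 0.24 ± 0.09 (edgeR adjusted p = 0.0457), did not pass the test when any 1 of the 6 libraries was left out (edgeR adjusted p 0.0587 to 0.126), nor by DESeq2, without a filter on low counts or with a length offset. Srebf2 had 72.8, 83.1 and 78.0 CPM without and 66.7, 68.6 and 66.4 CPM with luteolin, a fall by 0.21 ± 0.06 on the log2 scale (edgeR adjusted p = 0.0169). The call for Srebf2 was lost without IgE+BSA replicate 2 or without IgE+BSA+Luteolin replicate 1, with an edgeR adjusted p of up to 0.0623 over the libraries left out, and also with library size alone, upper-quartile factors or a length offset. Srebf1 (log2 change -0.02 ± 0.06) and Scap (0.04 ± 0.07) did not pass the test.

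Hmgcs1 had 43.2, 39.8 and 42.7 CPM in IgE+BSA and 24.5, 26.4 and 29.1 CPM in IgE+BSA+Luteolin. The groups did not overlap, and the levels with luteolin lay close to the 22.6 to 25.9 CPM of Control. The log2 change was -0.65 ± 0.08 (edgeR adjusted p = 1.05e-05). Idi1, which isomerizes isopentenyl diphosphate, had 13.9, 13.1 and 14.9 CPM without and 9.28, 10.5 and 9.38 CPM with luteolin. It also showed no overlap, with a log2 change of -0.52 ± 0.12 (edgeR adjusted p = 0.00278). Idi1 shares 684 identical bases with the processed pseudogene Gm13502, which was counted at no more than 0.15 CPM, so reads of the pair may have been lost or split in counting.

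Acat2, which joins acetyl-CoA units at the head of the pathway, went the other way. Its levels were 7.78, 7.65 and 8.29 CPM in IgE+BSA and 12.3, 10.7 and 10.2 CPM in IgE+BSA+Luteolin, with a log2 change of 0.49 ± 0.13 (edgeR adjusted p = 0.00838) that missed the threshold without IgE+BSA+Luteolin replicate 1 (edgeR adjusted p = 0.0574). Acat2 shares 1477 bases at 97.7% identity with Acat3, which was counted at no more than 0.584 CPM. Mvk (0.10 ± 0.15) and Pmvk (-0.03 ± 0.19), the mevalonate kinases, Mvd (0.39 ± 0.17), the decarboxylase that follows them, and Fdps (0.16 ± 0.38) did not pass the test. The mevalonate list of 7 genes thus held 1 that rose, 2 that fell and 4 without a call, against a background of 18.1% higher and 21.9% lower. Mvd was also called higher by library size alone and by upper-quartile factors.

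Ebp was the only one of 11 squalene and sterol genes that passed the test, against a background of 18.1% higher and 21.9% lower. By library size alone Lss, Tm7sf2, Nsdhl, Sc5d and Dhcr7 were also called higher, and by upper-quartile factors Lss and Nsdhl. These scalings called 33.4% and 28.3% of all genes higher. In the main fit, Ebp alone was called. Ebp had 45.6, 46.7 and 41.6 CPM without and 58.5, 57.9 and 49.7 CPM with luteolin. The groups did not overlap, and the log2 change was 0.31 ± 0.08 (edgeR adjusted p = 0.00493). The other 10 genes had log2 changes from -0.34 ± 0.18 for Hsd17b7, a sterol ketoreductase, to 0.58 ± 0.26 for Tm7sf2, a sterol reductase whose sequence overlaps that of Vps51. Between these lay Sqle (0.10 ± 0.09), squalene epoxidase, and Cyp51 (-0.09 ± 0.10), the lanosterol demethylase. Both overlapped between the groups: Sqle had 25.7, 22.6 and 24.8 CPM without and 24.9, 25.8 and 27.4 CPM with luteolin, and Cyp51 had 25.4, 24.4 and 22.2 CPM without and 20.8, 25.1 and 21.4 CPM with it. Fdft1 (0.16 ± 0.12), squalene synthase, Lss (0.16 ± 0.07), lanosterol synthase, Msmo1 (-0.09 ± 0.10), Nsdhl (0.24 ± 0.09), Sc5d (0.23 ± 0.12) and Dhcr7 (0.21 ± 0.13), enzymes of the later steps, did not pass the test. Stard4, a carrier of cholesterol in the cytosol, had a log2 change of -0.21 ± 0.09 and also missed the threshold (edgeR adjusted p = 0.0559).

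**Figure D2:**
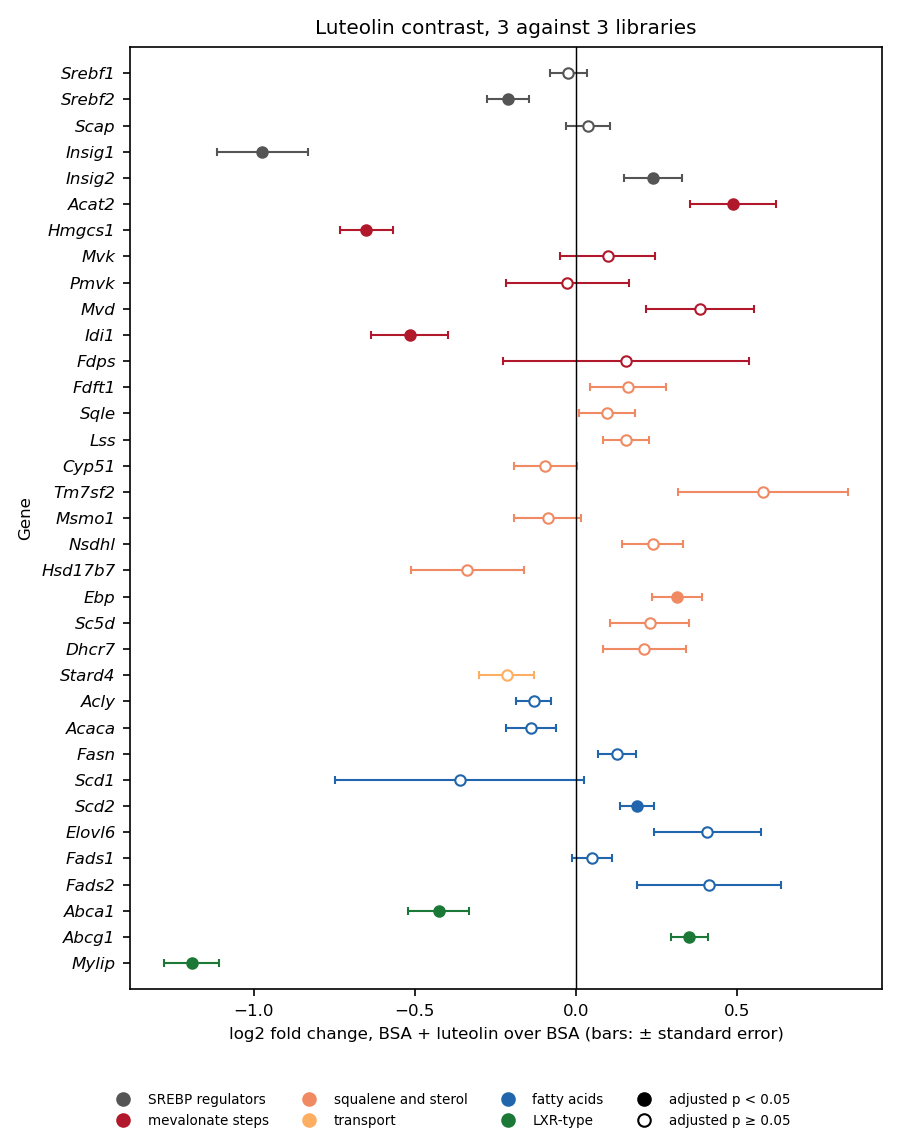
Log2 change from IgE+BSA to IgE+BSA+Luteolin (horizontal axis, bars give the standard error) for the 35 genes, coloured by list, with filled points for an adjusted p under 0.05. Mylip (-1.19), Insig1 (-0.97) and Hmgcs1 (-0.65) lie farthest to the left among the filled points, and Acat2 (0.49) and Abcg1 (0.35) farthest to the right.

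Among the fatty acid genes, Scd2 had 236.1, 240.9 and 228.4 CPM in IgE+BSA and 260.0, 274.6 and 269.1 CPM in IgE+BSA+Luteolin. All libraries with luteolin were higher, by a small log2 change of 0.19 ± 0.05 (edgeR adjusted p = 0.0096) that missed the threshold without IgE+BSA+Luteolin replicate 2 (edgeR adjusted p = 0.063). Scd1 and Scd2 share 623 bases at 95.5% identity. Acly (-0.13 ± 0.06), Acaca (-0.14 ± 0.08), which makes malonyl-CoA, and Fasn (0.13 ± 0.06), the synthase itself, differed by less than the test could call, as did Elovl6 (0.41 ± 0.17), an elongase, Fads1 (0.05 ± 0.06) and Fads2 (0.41 ± 0.22), desaturases of polyunsaturated chains, and Scd1 (-0.36 ± 0.39).

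Mylip had 90.1, 85.5 and 96.9 CPM in IgE+BSA and 35.3, 38.2 and 45.6 CPM in IgE+BSA+Luteolin. The highest library with luteolin was far below the lowest library of either other group, since Control had 75.7, 89.9 and 89.2 CPM. The log2 change was -1.19 ± 0.08 (edgeR adjusted p = 5.83e-09), the largest of the 35 genes. Abca1, which loads cholesterol onto lipid-poor apolipoprotein, had 22.4, 25.2 and 21.8 CPM without and 16.7, 16.9 and 17.9 CPM with luteolin, a log2 change of -0.43 ± 0.10 (edgeR adjusted p = 0.00221). Abcg1, which exports cholesterol to lipoprotein particles, moved in the opposite direction without overlap. It had 128.0, 135.2 and 121.2 CPM without and 162.6, 160.4 and 166.9 CPM with luteolin, a log2 change of 0.35 ± 0.06 (edgeR adjusted p = 0.000157). Its Control libraries, at 155.1 to 164.6 CPM, were close to those with luteolin.

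Insig1, Hmgcs1, Idi1, Ebp, Abca1, Abcg1 and Mylip passed the test whichever of the 6 libraries was left out. A single fit over all 9 libraries kept the calls of Insig1, Hmgcs1, Idi1, Abcg1 and Mylip and lost the other 6 of the 11. Markers moved between the same groups. The mast cell sum was 57240 to 64120 CPM without and 68870 to 79860 CPM with luteolin, and 5 of its 8 genes were higher in every library with luteolin, but Hdc, the enzyme that makes histamine, had 715.7 to 966.2 CPM without and 359.9 to 389.9 CPM with it, and Kit, the stem cell factor receptor, had at least 2138 CPM in each library without and 1963 to 2021 CPM with it. The basophil sum was 1446 to 1504 CPM without and 1610 to 1755 CPM with luteolin, the eosinophil sum 9.70 to 12.0 and 5.71 to 6.93 CPM, and the neutrophil sums given above did not overlap either. The part of these markers in the differences was not tested.

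**Figure D3:**
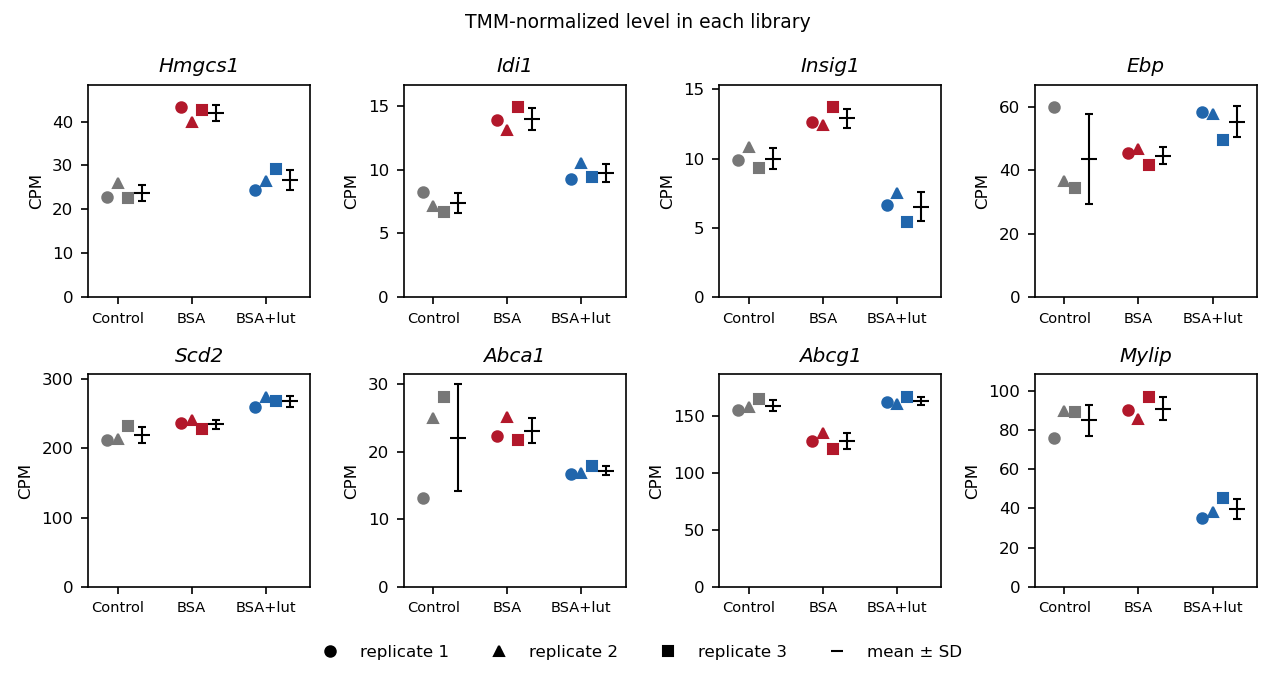
TMM-normalized CPM (vertical axes, from 0) of 8 genes in each library of Control, IgE+BSA (BSA) and IgE+BSA+Luteolin (BSA+lut), with a symbol for each replicate and the mean ± SD beside them (n = 3). Hmgcs1 and Idi1 are highest in the 3 IgE+BSA libraries, Mylip is lowest in the 3 IgE+BSA+Luteolin libraries, and Ebp and Abca1 spread widely over the Control libraries.

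The response to IgE and antigen was addressed by comparing IgE+BSA with Control. With all Control libraries, Hmgcs1 and Idi1 rose and the other 33 genes did not pass the test, a share of 5.71% higher and none lower against a background of 2.25% higher and 1.02% lower. The log2 change was 0.82 ± 0.11 for Hmgcs1 (edgeR adjusted p = 0.012), from 22.9, 25.9 and 22.6 CPM in Control to a mean of 41.9 CPM in IgE+BSA. Idi1 rose by 0.92 ± 0.15 (edgeR adjusted p = 0.0273), from 8.22, 7.16 and 6.71 CPM. In neither gene did Control and IgE+BSA libraries overlap. Both calls were lost without Control replicate 3 or without any 1 IgE+BSA library, that of Idi1 also without Control replicate 2, with an edgeR adjusted p of up to 0.119 for Hmgcs1 and 0.169 for Idi1. Both were also lost when samples with the same replicate number were paired in the fit. None of the 35 was lower by edgeR's test, 1 was at an unadjusted p under 0.05, DESeq2 called 1 lower (Abcg1) and limma none.

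The Control libraries themselves differed across these genes. Control replicate 1 was over 1.5 times the mean of Control replicates 2 and 3 for 9 genes (25.7%, background 16.1%), all of them sterol genes, and under it by the same factor for 4 (11.4%, background 20.0%), none of them sterol genes. The background is the share of all 11560 genes tested, of which many differed as much between these libraries. Acat2, for example, had 12.8, 5.71 and 6.43 CPM in Control replicates 1, 2 and 3, Mvd had 7.64, 3.48 and 3.63 CPM and Ebp 59.9, 36.7 and 34.4 CPM, whereas Abca1 had 13.1, 25.1 and 28.1 CPM. The sum over the 19 sterol genes was 346.8, 262.3 and 259.3 CPM in the 3 Control libraries, 339.7 to 352.2 CPM in IgE+BSA and 344.9 to 357.9 CPM in IgE+BSA+Luteolin. On this sum Control replicate 1 lay within the range of the treated libraries, and Control replicates 2 and 3, below it, were the libraries with few neutrophil markers.

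Without Control replicate 1, 11 of the 35 genes were called higher in IgE+BSA (31.4%, background 22.6%) and 5 lower (14.3%, background 22.4%). The higher genes comprised 7 sterol genes, namely Hmgcs1, Idi1, Fdps, Sqle, Cyp51, Ebp and Dhcr7, together with Scap, Acly, Acaca and Fasn, and no sterol gene was lower by edgeR's test, also at an unadjusted p under 0.05 (0 genes). The lower genes were Srebf2, Elovl6, Fads1, Fads2 and Abcg1. Cyp51 rose by 0.94 ± 0.12 (edgeR adjusted p = 2.62e-05) and Sqle by 0.54 ± 0.11 (edgeR adjusted p = 0.00112) in this setting. With Control replicate 1 as the only Control library, whose spread is then taken from the other group, 8 genes were called higher (22.9%, background 23.1%) and 4 lower (11.4%, background 19.2%). Cyp51 (0.12 ± 0.13) and Sqle (-0.18 ± 0.12) were then not called, and the genes called were Srebf2, Hmgcs1, Idi1, Hsd17b7 (0.79 ± 0.27), Stard4 (0.47 ± 0.12), Acly, Acaca and Abca1 (0.80 ± 0.15), higher, and Acat2, Mvd, Ebp and Abcg1, lower. Abca1 was -0.26 ± 0.10, with no call, without Control replicate 1.

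The genes called in the same direction in both settings, which share the IgE+BSA libraries, were Hmgcs1, Idi1, Acly and Acaca, higher (11.4%, background 6.75%), and Abcg1, lower (2.86%, background 4.18%). Acly had 156.9, 158.6 and 162.4 CPM in Control and 199.4, 217.0 and 202.4 CPM in IgE+BSA, a log2 change of 0.37 ± 0.09 with all libraries (edgeR adjusted p = 0.0898). Acaca had 28.7, 19.7 and 23.7 CPM and 36.6, 37.6 and 38.6 CPM, a log2 change of 0.64 ± 0.16 (edgeR adjusted p = 0.0829). Acaca shares 6118 bases at 99.2% identity with the processed pseudogene Gm5182, so its counts are uncertain in the same way as those of Idi1, as are those of Fdft1, which shares sequence with Ctsb and Gm6781, and of Elovl6, which shares it with Gm11295. Abcg1 had a log2 change of -0.31 ± 0.10 (edgeR adjusted p = 0.138). None of these 3 genes passed edgeR's test with all Control libraries, although their libraries did not overlap between the groups, and both DESeq2 and the single fit over all 9 libraries called each of them. The log2 change had opposite signs in the 2 settings for 21 of the 35 genes (60.0%, against 49.0% of all genes tested). Among these, Ebp and Srebf2 were called in both settings: Ebp was 0.28 ± 0.09 without Control replicate 1 and -0.44 ± 0.10 against it alone, and Srebf2 was -0.38 ± 0.08 and 0.29 ± 0.10.

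**Figure D4:**
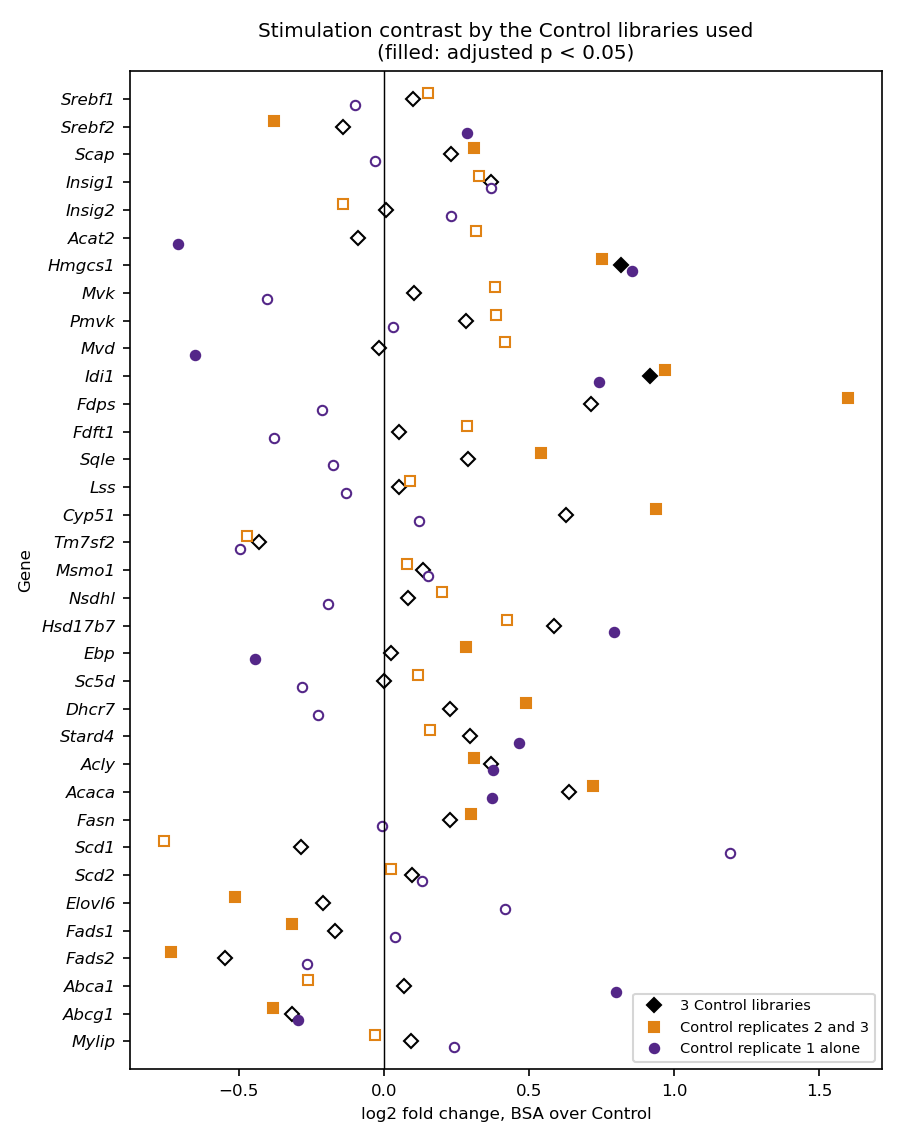
Log2 change from Control to IgE+BSA (horizontal axis) for the 35 genes with all 3 Control libraries (diamonds), with Control replicates 2 and 3 (squares) and with Control replicate 1 alone (circles), filled where the adjusted p was under 0.05. The symbols lie close together and are all filled for Hmgcs1 and Idi1, and for genes such as Acat2, Mvd, Ebp and Srebf2 squares and circles lie on opposite sides of 0.

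Cells with luteolin and challenge were last compared with Control. These values share the Control libraries with the comparison above and the IgE+BSA+Luteolin libraries with the first one. Mylip alone passed the test, lower by 1.10 ± 0.14 on the log2 scale (edgeR adjusted p = 0.0136), so that 1 of the 35 genes was lower (2.86%, background 2.75%) and none was higher (background 0.285%), where 5 were higher at an unadjusted p under 0.05, DESeq2 called Acly and Scd2 higher and limma called none. The call for Mylip was lost when any 1 library other than Control replicate 1 was left out (edgeR adjusted p of up to 0.111). Hmgcs1 (0.16 ± 0.13), Idi1 (0.40 ± 0.16) and Abcg1 (0.03 ± 0.09) did not pass the test, nor did Insig1 (-0.61 ± 0.18), which DESeq2 and the single fit over all 9 libraries both called lower.

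Without Control replicate 1, 18 genes were called higher (51.4%, background 29.9%) and 6 lower (17.1%, background 30.1%). The higher genes included 13 of the 19 sterol genes, from Acat2 (0.84 ± 0.17) at the head of the pathway to Dhcr7 (0.74 ± 0.15) at its end, and none of the 19 was lower, also at an unadjusted p under 0.05 (0 genes). Hmgcs1 was not among them (0.14 ± 0.11). The 6 lower genes were Srebf2, Insig1, Scd1, Fads1, Abca1 and Mylip. With Control replicate 1 as the only Control library, 4 genes were higher (11.4%, background 11.6%), namely Insig2, Acly, Scd2 and Elovl6, Mylip alone was lower (2.86%, background 9.55%), and none of the 19 sterol genes was called by edgeR's test, also at an unadjusted p under 0.05 (0 genes). Acly and Scd2, higher (5.71%, background 2.82%), and Mylip, lower (2.86%, background 4.99%), were the genes called in both settings, which share the IgE+BSA+Luteolin libraries. Mylip was -1.19 ± 0.09 without Control replicate 1 and -0.93 ± 0.12 against it alone.

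A further 54 genes of the same pathways were listed as neighbours, of which 48 were tested. From IgE+BSA to IgE+BSA+Luteolin 13 rose (27.1%, background 18.1%) and 7 fell (14.6%, background 21.9%), with a median log2 change of 0.08. These counts were 22 and 4 (median 0.19) by library size alone and 19 and 4 (median 0.15) by upper-quartile factors. Arl4c, a small GTPase gene that LXRs induce in other cells, fell from 250.3, 252.3 and 257.9 CPM to 125.5, 128.0 and 138.5 CPM, a log2 change of -0.95 ± 0.06 (edgeR adjusted p = 5.13e-10). The other neighbours listed as LXR-type were not called: Lpcat3, which remodels phospholipids, had a log2 change of 0.13 ± 0.06 (edgeR adjusted p = 0.0879) and Smpdl3a, a phosphodiesterase, one of -0.04 ± 0.15. Rnf145, listed with the regulators, rose from 68.3, 68.1 and 62.4 CPM to 85.7, 89.0 and 88.0 CPM. Its log2 change was 0.40 ± 0.06 (edgeR adjusted p = 7.48e-05). Acsl4, which activates polyunsaturated fatty acids, fell from 224.8, 181.4 and 221.7 CPM to 120.3, 118.6 and 138.5 CPM, a log2 change of -0.73 ± 0.08 (edgeR adjusted p = 1.66e-06). The other 18 changes were under 1.5-fold. The falls were of Nr1h2 and Rxra, which encode LXR beta and a partner receptor, Soat1, which esterifies cholesterol, Lbr and Stard3. The rises were of Rnf145, Erlin1, Erlin2, Erg28, and Npc1 and Lipa, which release cholesterol from lysosomes. Also higher were Mlycd, Elovl7, Tecr, Hacd2, Hacd3, Hsd17b12 and Acsl5, listed with fatty acid and lipid synthesis. Rxrb (0.08 ± 0.07) and Npc2 (0.14 ± 0.06) were not called. Nr1h3, which encodes LXR alpha, was at 0.146 to 0.774 CPM and was not tested. Between IgE+BSA and Control none of the 48 passed edgeR's test with all Control libraries, while 6 were higher and 2 lower at an unadjusted p under 0.05, DESeq2 called 1 higher and limma none, and 17 were higher (35.4%, background 22.6%) and 5 lower (10.4%, background 22.4%) without Control replicate 1. With Control replicate 1 as the only Control library, 9 were higher (18.8%, background 23.1%) and 7 lower (14.6%, background 19.2%). Between IgE+BSA+Luteolin and Control none of the 48 passed edgeR's test with all Control libraries, while 11 were higher and 5 lower at an unadjusted p under 0.05, DESeq2 called 6 higher and 3 lower and limma none. Without Control replicate 1, 24 were higher (50%, background 29.9%) and 8 lower (16.7%, background 30.1%), and with it as the only Control library 11 were higher (22.9%, background 11.6%) and 4 lower (8.33%, background 9.55%).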

How the data were processed

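RNA from 9 BMMC samples, 3 each of Control, IgE+BSA and IgE+BSA+Luteolin, was sequenced by the authors from stranded mRNA libraries (NovaSeq), filtered with HTStream and aligned with STAR 2.7.0f to mm10. The authors deposited raw counts per Ensembl gene, with no normalization; the annotation release, strand setting and treatment of reads with several matches are not given in the sources used here, so counts of overlapping genes, pseudogenes and near-identical copies are uncertain. Totals ranged from 9515004 to 24605689 counts, and 3 counts corresponded to 0.121 to 0.290 TMM-normalized CPM. Symbols, lengths and coordinates came from GENCODE (GRCm38), which named 47224 of the 47643 identifiers.

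Genes with a median above 1 CPM over the 9 libraries were tested in R 4.3.3 with edgeR 4.0.16 (quasi-likelihood, TMM, two-sided, Benjamini-Hochberg, threshold 0.05) on the 6 libraries of each comparison, without blocking. CPM values are TMM-normalized. The script was tested on simulated data. Each replicate was used as 1 sample. Replicates differed by more than sampling noise (chi-square divided by its degrees of freedom at least 4.05), which does not show that they came from separate cultures. Alternatives were DESeq2 1.42.0, limma 3.58.1 (the study's test), other scalings and filters, all libraries in 1 fit, a replicate block, a length offset and each library left out; Control replicate 1 as the only Control library was added after seeing the data. All 35 genes are named, and so is each neighbour called between IgE+BSA and IgE+BSA+Luteolin. Of the neighbours, those past the threshold by 1.5-fold get values, and other neighbours given values were chosen after these were seen. The members, lists and tests were chosen with earlier results of these data known.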

Additional observations from a re-analysis of the deposited data

How the results depend on the processing

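In IgE+BSA+Luteolin against IgE+BSA, 4624 genes were called. A single fit over all 9 libraries called 1093, and 1 gene of the 35 higher in place of 5. Scaling by library size alone called 14 of the 35 higher (40.0%, against 33.4% of all genes) and upper-quartile scaling 10 (28.6%, against 28.3%), and these scalings moved the median log2 change of all genes to 0.13 and 0.09 and the share of lower calls from 54.6% to 31.4% and 38.2%. The counts without 1 library ran from 3 to 5 higher. Of 187 alternatives for the 11 genes called, 163 kept the call with its direction and 24 lost it, and none turned direction.

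In IgE+BSA against Control, with 378 genes called (31.2% lower; 63.0% by library size alone and 47.6% by upper quartile), DESeq2 called 1227, no filter 618, the fit over 9 libraries 1105 and Control replicate 1 alone 4892. Of the 35 genes, DESeq2 and the fit over 9 libraries each called 4 higher and 1 lower, library size alone 1 lower, and Control replicate 1 alone 8 higher and 4 lower. There Srebf2 (0.2857) and Ebp (-0.4431) were called against the direction of their uncalled values with all libraries. Without 1 library the counts ran from 90 to 5207 genes, 0 to 11 of the 35 higher and 0 to 5 lower.

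In IgE+BSA+Luteolin against Control, with 351 genes called (90.6% lower, 74.5% by DESeq2), DESeq2 called 1379, no filter 811, the fit over 9 libraries 1251, a length offset 650 and Control replicate 1 alone 2447. Of the 35 genes, DESeq2 and the fit over 9 libraries each called 2 higher and 2 lower, and Control replicate 1 alone 4 higher. Without 1 library the counts ran from 2 to 6931 genes, 0 to 18 of the 35 higher and 0 to 6 lower. The causes of these differences were not tested, and each fit without 1 library also has fewer samples.

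The labels give the groups the same replicate numbers, but samples with the same number did not deviate together throughout: the correlations were -0.0236, 0.175 and 0.283 between IgE+BSA+Luteolin and IgE+BSA, and the lowest was -0.255 between IgE+BSA and Control. With the replicate block, 144 genes were called in IgE+BSA against Control and none of the 35 was higher (0), with edgeR adjusted p-values of 0.0761 for Hmgcs1 and 0.109 for Idi1; with the block and the length offset these were 208 and 1. The block gave 212 genes in IgE+BSA+Luteolin against Control. In IgE+BSA+Luteolin against IgE+BSA the block called Nsdhl, Stard4, Acly and Fasn in addition, and lost none of the 11.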

Other observations

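Ch25h, which makes the oxidized sterol 25-hydroxycholesterol, was below the filter and not tested. It had 0.389, 0.193 and 0.0412 CPM in Control, 1.45, 1.60 and 0.829 CPM in IgE+BSA and 0.187, 0.162 and 0.0967 CPM in IgE+BSA+Luteolin. Each IgE+BSA library was above the other 6, and the counts summed over the 3 libraries of a group were 11, 81 and 10. The LXR-type neighbours summed to 321.0, 516.8 and 532.0 CPM in Control, 369.0 to 382.5 CPM in IgE+BSA and 259.8 to 264.9 CPM in IgE+BSA+Luteolin, a sum dominated by Arl4c.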
